A study of Mus musculus with 6 samples.

Results

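The miRNAs numbered miR-297, miR-466, miR-467 and miR-669 were followed in cultured mouse macrophages that lacked or carried apolipoprotein E (ApoE). Members were all mature miRNA references with 1 of these 4 numbers in any of their names, whatever the letter, copy number or arm, and 47 of the 911 mature references in the deposited tables qualified. The 47 held 56 mature names, because 12 of them were joint references that group near-identical miRNAs. By number they comprised 3 references of miR-297, 21 of miR-466, 10 of miR-467 and 14 of miR-669, where the joint reference miR-669m-5p/miR-466m-5p counts under both of its numbers. A further 27 references of these numbers were stem-loops, the hairpin precursors, and were left out.

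Bone marrow came from male ApoE-KO (EKO) and wildtype (WT) mice aged 6 to 12 weeks, and all cultures of both genotypes were grown in DMEM with 10% fetal bovine serum and given 25 ng/mL recombinant murine M-CSF, the macrophage growth factor, every 2 days for 6 days. Small RNA libraries were made from total RNA of 3 EKO and 3 WT cultures, which the design states are biological replicates, and the comparison asks which miRNAs differ between the genotypes. Apoe mRNA is not measured in these libraries, so that no value checks the genotype labels. The allele and the strain are not stated in the labels.

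Mature miRNAs are cut from hairpins as a 5p and a 3p strand, and usually 1 strand is loaded into an Argonaute protein while the other is degraded. Bases 2 to 8 of the loaded strand, the seed, pair with target mRNAs. In the mouse, the miRNAs of these 4 numbers lie mainly as a large tandem array in an intron of Sfmbt2. This gene encodes a Polycomb-group protein and is an imprinted gene of the placenta. The array is known for its expression in embryonic stem cells and placenta.

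In the RefSeq annotation of GRCm38.p6, 82 hairpin genes carried these numbers. Of these, 72 lay within Sfmbt2, all in 1 intron and none overlapping an Sfmbt2 exon, and the other 10 lay elsewhere. Within Sfmbt2 there were 5 hairpins of miR-297, 24 of miR-466, 14 of miR-467 and 29 of miR-669. Copy number differed widely among them: miR-669a had 12 copies, miR-467a 10 and miR-466b 8, whereas miR-669c had 1. Of 36 distinct hairpin names within Sfmbt2, 31 had a mature reference in the tables; those with no row in the tables used here were miR-466l, miR-669g, miR-669i, miR-669j and miR-669k. The label therefore held for nearly all of the reads. The 4 references whose hairpins lie only outside Sfmbt2 (miR-466j, miR-466k, miR-467h and miR-669n) summed to between 0.108 and 0.434 CPM (reads scaled to a library total of 1000000) in any library. A further 5 references, with hairpins both inside and outside Sfmbt2, summed to between 2.39 and 9.15 CPM.

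The RefSeq table of mature sequences matched 8 names of these numbers, all with hairpins only outside Sfmbt2. Among these 8, those listed in the tables carry UGUGUG and those with no row in them carry CACACA. Each is written 5′ to 3′ with the seed in capitals.
miR-466j: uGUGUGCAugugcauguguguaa
miR-466k: uGUGUGUGuacauguacauguga
miR-467h: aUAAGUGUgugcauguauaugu
miR-669n: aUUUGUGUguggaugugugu
miR-466i-3p: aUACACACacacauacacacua
miR-466q: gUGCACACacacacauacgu
miR-467f: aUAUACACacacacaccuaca
miR-467g: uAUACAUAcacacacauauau
The first 4 were in the tables, with 15, 114, 18 and 6 reads over all 6 libraries, and the last 4 had no row in them. UGUGUG was found in all 4 sequences listed, against 28 of the 1679 mature sequences in the table (1.67%), and CACACA in all 4 with no row, against 12 of the 1679 (0.715%). These shares, which include the sequences above, give how common each repeat is. What share of all sequences with either repeat was listed was not tested, so the repeats are not shown to go with listing. The search was of the mature strand as written. No sequence from within Sfmbt2 was matched, so these sequences do not stand for the array. Whether the repeat goes with detection there was not tested.

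Libraries held between 34651516 and 41331600 reads on mature miRNAs, so that 1 read was worth 0.0242 to 0.0289 CPM and a floor of 3 reads 0.0726 to 0.0866 CPM. PCR copies were not removed, so intervals and floors here cover counting error only. The macrophage and myeloid markers were all listed (8 of 8), with a summed level of 143031 to 171234 CPM in EKO against 215757 to 228584 in WT, mostly miR-21a-5p. Among miRNAs of other cell types, the stromal list (6 of 6 listed) summed to 77.5 to 118 CPM in EKO against 183 to 225 in WT, the lymphoid list (3 of 3) to 489 to 592 and 684 to 801, and the erythroid list (3 of 5) to 117 to 145 and 127 to 160. These sums are mostly miR-143-3p in the stromal list and miR-486 in the erythroid list. Some list members ran against their sums: miR-223-5p was at 2673 to 2880 CPM in EKO against 1959 to 2162 in WT, miR-451a of the erythroid list at 1.29 to 5.92 against 0 to 0.587, and miR-214-3p at 0 to 2.51 against 0 to 0.312. The stromal miR-145a-5p had a level only in WT replicate 2 (0.992 CPM). None of the 15 pluripotent stem cell miRNAs (the miR-290 to miR-295 cluster and miR-302) had a row in the tables used here, and the trophoblast and placenta list, miRNAs of the Dlk1-Dio3 cluster, had 4 of 10 listed at a summed 0 to 0.683 CPM in EKO against 0.750 to 2.32 in WT. The part that these differences play in the results below was not tested. In bulk libraries, fewer cells of a type and less RNA per cell cannot be told apart.

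As a whole the array was expressed at a modest level that overlapped between genotypes. Summed over all 47 members it reached 536, 518 and 424 CPM in the EKO libraries and 492, 431 and 441 CPM in the WT libraries. That was 0.0424% to 0.0536% of mature miRNA reads. The lowest value of all was EKO replicate 3 and the 2 highest were the other EKO libraries, so that the groups overlapped (493 ± 60.0 against 455 ± 32.9, SD, n = 3 each, a log2 ratio of the means of 0.12). The direction of this ratio depended on 1 member. Without miR-669c-5p the sum was 167, 213 and 209 CPM in EKO against 270, 212 and 254 in WT, with a log2 ratio of -0.32, and WT replicate 2 lay within the EKO range.

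A few members carried nearly all of the reads. Only 5 members averaged at least 10 CPM, 16 averaged 1 to 10 CPM and 26 averaged under 1 CPM. The 5 most abundant took 91.2%, 85.2% and 84.0% of member reads in EKO and 79.0%, 83.9% and 76.3% in WT, a share that was higher in every EKO library than in any WT library. Members under 1 CPM on average summed to 1.62, 3.53 and 5.19 CPM in EKO against 17.1, 5.93 and 12.5 in WT. All 3 EKO values were below all 3 WT values, which also held for the other mature references of that level (88.1 to 112 against 134 to 159 CPM).

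**Figure D1:**
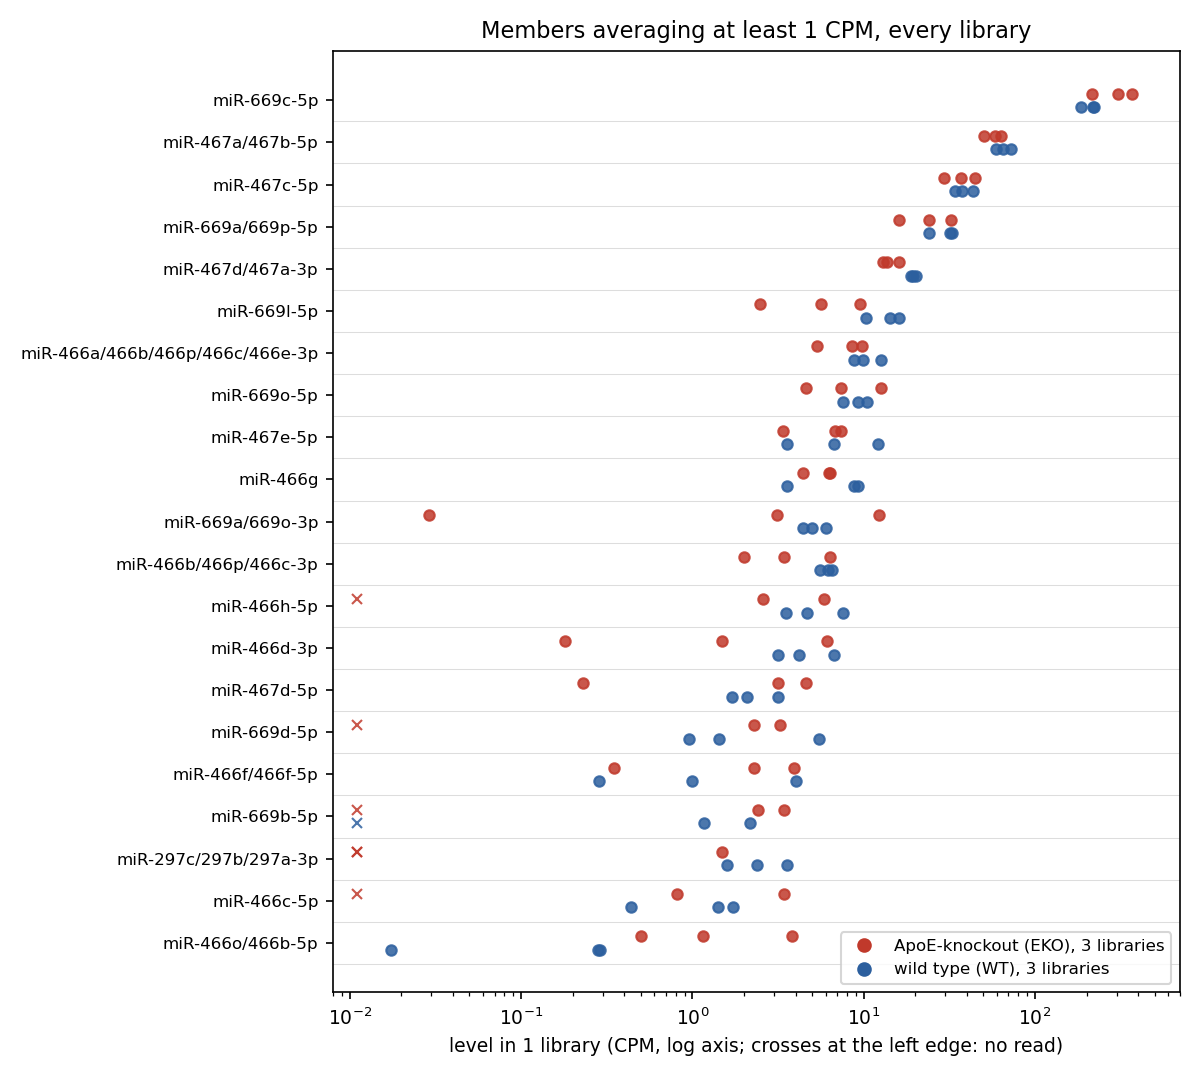
Level of each of the 21 members averaging at least 1 CPM in each of the 6 libraries (horizontal log axis, CPM; 1 row per member, ordered by mean level; crosses at the left edge are libraries with no read). The genotypes overlap at the top of the list, where miR-669c-5p lies at 187 to 369 CPM, and EKO libraries scatter more widely from about 10 CPM down.

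The most abundant member was miR-669c-5p, the product of a lone hairpin. It stood at 369, 304 and 215 CPM in EKO and at 222, 219 and 187 CPM in WT. EKO replicates 1 and 2 lay above every WT library, while EKO replicate 3 lay just below WT replicates 1 and 2. The means were 296 ± 77.3 and 209 ± 19.6 CPM (SD, n = 3 each), and the difference, 0.54 ± 0.23 (SE) as a log2 fold change, did not pass (edgeR quasi-likelihood test, unadjusted p = 0.0475, Benjamini-Hochberg adjusted p = 0.222, and 0.0505 to 0.55 over 13 alternatives). None of its reads was shared with another reference. They came as 202, 210 and 170 distinct read sequences in EKO and 180, 182 and 181 in WT. Among all mature references it ranked 75th, 83rd and 99th by level in EKO and 101st, 98th and 106th in WT.

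This miRNA's weight within the array varied with its level. It made up 68.9%, 58.8% and 50.7% of member reads in EKO and 45.1%, 50.8% and 42.3% in WT, with EKO replicate 3 and WT replicate 2 close together (59.5% ± 9.10 against 46.1% ± 4.30, SD, n = 3 each).

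The other miR-669 members were far less abundant. The joint reference miR-669a-5p/miR-669p-5p, which collects reads of the most copied hairpin, stood at 16.0, 24.1 and 32.5 CPM in EKO against 31.8, 24.1 and 32.7 in WT. EKO replicate 1 was well below the WT range, EKO replicate 2 was level with WT replicate 2 at its lower edge and EKO replicate 3 lay within it, and the log2 fold change was -0.27 ± 0.30 (SE; edgeR adjusted p = 0.763). The level of miR-669l-5p was 2.50, 5.63 and 9.51 CPM in EKO against 14.3, 10.3 and 16.0 in WT. Its groups did not overlap, with every EKO library below every WT library, and the log2 fold change was -1.20 ± 0.53 (SE; edgeR unadjusted p = 0.0531, adjusted p = 0.244, and 0.0954 to 0.616 over 12 alternatives).

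Of all members miR-669e-5p had the smallest p. It had no read in EKO replicates 1 and 2 and 1 read in EKO replicate 3 (0.0270 CPM), against 2.11, 2.03 and 1.66 CPM in WT. The 81, 84 and 68 WT reads came as 4, 6 and 5 distinct sequences. By pooled counts, WT was 215 times EKO (1 read against 233, exact 95% counting interval 38.2 to 8521). In edgeR the adjusted p was 0.0803, with 0.00115 to 0.285 over 12 alternatives, and the lowest of these, DESeq2, was the only one that called it. Whether it was called thus depended on the tool.

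The 3p side of miR-669 was erratic in EKO. The joint reference miR-669a-3p/miR-669o-3p, chosen after its values were seen, stood at 0.0289, 12.3 and 3.13 CPM in EKO against 5.00, 4.43 and 5.99 in WT. The EKO libraries thus lay on both sides of the narrow WT range, from 1 read in EKO replicate 1 to 485 reads in EKO replicate 2. For miR-669f-3p, reads were found in EKO replicate 1 alone among EKO libraries (1.27 CPM), and WT libraries held 1.43, 1.79 and 0.0244 CPM (log2 fold change -1.27 ± 2.40, SE; edgeR adjusted p = 0.873). Leaving out 1 of the other libraries gave -1.84 to -0.64, and without EKO replicate 1 no EKO read remained (fitted value -8.45, which is no bound).

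The abundant miR-467 members on the 5p side overlapped between genotypes. The joint reference miR-467a-5p/miR-467b-5p, second in level, stood at 58.2, 63.0 and 50.4 CPM in EKO against 72.3, 65.1 and 59.3 in WT. Groups overlapped and the log2 fold change was -0.17 ± 0.20 (SE; edgeR adjusted p = 0.777). The level of miR-467c-5p was 29.5, 36.9 and 44.4 CPM in EKO against 43.5, 34.2 and 37.3 in WT. With a log2 fold change of -0.03 ± 0.23 (SE; edgeR adjusted p = 0.985), its sign depended on single libraries, turning to 0.08 without EKO replicate 1 and to 0.07 without WT replicate 1. With DESeq2 size factors it was 0.05, while the median of all tested references moved alike, from -0.16 to -0.08.

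The 3p strand of some of these hairpins, miR-467d-3p/miR-467a-3p, stood at 16.0, 13.0 and 13.7 CPM in EKO against 18.9, 19.5 and 20.3 in WT. Every EKO library lay under the lowest WT library (means 14.2 ± 1.58 and 19.5 ± 0.724, SD, n = 3 each), but the log2 fold change of -0.42 ± 0.29 (SE) did not pass (edgeR adjusted p = 0.526). This was the only 3p reference among the 5 members averaging at least 10 CPM.

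The miR-466 members were many and low, and their values rest most on how shared reads were divided. Of the 47 members, 30 lost under 1% of their total reads in this division, 4 lost 1% to 10% and 13 lost over 10%. A divided read is lost only in part, so the share of reads divided is at least as large as the share lost. The joint reference miR-466a-3p/miR-466b-3p/miR-466p-3p/miR-466c-3p/miR-466e-3p, chosen after its values were seen, lost 37.7% of its total reads in the division and miR-466b-3p/miR-466p-3p/miR-466c-3p lost 50.0%. The first stood at 5.32, 8.58 and 9.76 CPM in EKO against 12.6, 8.73 and 9.92 in WT, with overlap, and the second at 3.45, 6.39 and 2.0 CPM in EKO against 6.55, 5.58 and 6.22 in WT, also with overlap. In a sum over the whole 3p side of miR-466, a read divided among these references counts as 1 read. That sum was 14.9, 15.3 and 16.7 CPM in EKO against 32.1, 18.5 and 28.8 in WT. No EKO library reached the lowest WT library (log2 ratio of the means -0.76), and the EKO libraries agreed closely (15.6 ± 0.948 against 26.5 ± 7.09, SD, n = 3 each).

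Individual miR-466 members differed in both directions at low counts. The level of miR-466n-3p was 0 in all 3 EKO libraries and 1.12, 0.629 and 0.733 CPM in WT, at least 30.4-fold higher in WT against a floor of 3 reads over the EKO group (0 against 99 reads). The 43, 26 and 30 WT reads came as 3, 1 and 3 distinct sequences. Its edgeR adjusted p was 0.105, with 0.0380 to 0.401 over 12 alternatives, and DESeq2 alone called it. For miR-466f-3p, which the filter on low counts removed, EKO replicate 2 held 0.0506 CPM and the other EKO libraries none, against 2.37, 0.0242 and 2.76 CPM in WT. WT replicate 2 with 1 read thus lay within the EKO range (2 against 205 reads pooled, a WT to EKO ratio of 94.5, exact 95% counting interval 25.8 to 786).

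In the other direction, miR-466o-5p/miR-466b-5p stood at 3.81, 1.15 and 0.499 CPM in EKO against 0.0173, 0.290 and 0.281 in WT. All EKO libraries were above all WT libraries, with a log2 fold change of 3.21 ± 1.60 (SE; edgeR unadjusted p = 0.0803, adjusted p = 0.316). This reference lost 29.4% of its total reads in the division. The log2 fold change ranged from 1.97, without EKO replicate 1, to 3.66, without EKO replicate 3. The overlapping reference miR-466e-5p/miR-466o-5p/miR-466b-5p lost 49.4% of its total reads in the division. It stood at 0.0866, 1.11 and 0.472 CPM in EKO against 0, 0.290 and 0.257 in WT, with overlap (log2 fold change 1.63 ± 1.95, SE; edgeR adjusted p = 0.78). Its log2 fold change ranged from 0.68, without EKO replicate 2, to 2.24, without WT replicate 2. Both names draw on the same hairpins, and these 2 values are not independent.

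The miR-297 members were the rarest of the 4 numbers. The joint reference miR-297c-3p/miR-297b-3p/miR-297a-3p had no read in EKO replicates 1 and 2 and 1.48 CPM in EKO replicate 3, against 3.59, 1.60 and 2.37 CPM in WT. The EKO value nearest to WT lay just under WT replicate 2, so that the groups did not overlap, yet the fold change had a wide error (log2 -2.35 ± 2.10, SE; edgeR adjusted p = 0.683, and 0.0506 to 0.897 over 12 alternatives). It was -1.76 without EKO replicate 1 and -1.75 without EKO replicate 2. Without EKO replicate 3 no EKO read remained, and the fitted value of -9.60 is then no bound. The 5p strands of miR-297 summed to 0, 0 and 0.809 CPM in EKO against 2.52, 0.387 and 0.587 in WT, with overlap.

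**Figure D2:**
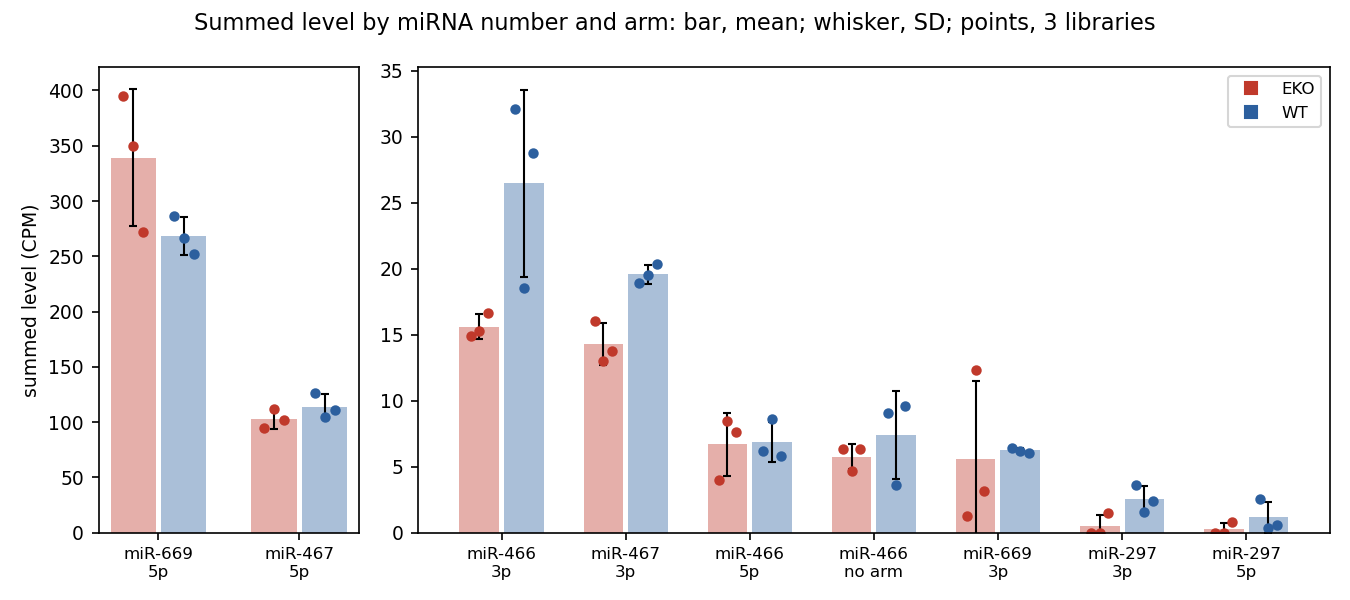
Summed level (CPM) by miRNA number and arm, with the 2 most abundant sums in the left panel and further sums in the right (bars, mean; whiskers, SD; points, the 3 libraries of each genotype). Not drawn are miR-669m-5p/miR-466m-5p, miR-466f/miR-466f-5p, and the miR-467 and miR-669 references without an arm. The EKO points lie below the WT points for miR-466 3p, miR-467 3p and miR-297 3p, whereas miR-669 5p and miR-467 5p overlap.

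Summed by number and arm, the 5p sums of each single number overlapped, and the 3p sums of miR-466, miR-467 and miR-297 did not. The joint 5p reference miR-669m-5p/miR-466m-5p, a sum of its own, did not overlap either. It was at 0 in all EKO libraries against 0.208, 0.0242 and 0.159 CPM in WT. The miR-669 5p sum was 395, 350 and 272 CPM in EKO against 287, 267 and 252 in WT, and that of miR-467 5p was 94.7, 112 and 102 CPM in EKO against 126, 105 and 111 in WT. The miR-466 5p sum was 3.97, 8.47 and 7.63 CPM in EKO against 6.17, 8.59 and 5.79 in WT. The miR-467 3p sums, 14.3 ± 1.58 CPM in EKO against 19.6 ± 0.723 for WT (SD, n = 3 each), were nearly all miR-467d-3p/miR-467a-3p. The miR-297 3p sum is 1 reference. Both of these references are among the non-overlapping members counted below, whose share was near the background (17.9% against 17.7%). Only the miR-669 3p sum overlapped among the 3p sides, at 1.30, 12.3 and 3.13 CPM in EKO against 6.43, 6.22 and 6.04 in WT. There EKO replicate 2 alone exceeded WT. For other mature references averaging under 1 CPM, the 3p sum was also lower in every EKO library (44.2 to 49.0 against 53.2 to 67.6 CPM). For those averaging 1 to 10 CPM it overlapped.

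Summed over all members the ratio of 5p to 3p reads differed by genotype, whereas within miR-466, miR-467 and miR-669 taken singly the ratios overlapped. This comparison was chosen after the values were seen and carries no test. The hairpin of miR-669c had 1 listed reference, its 5p strand, so the summed arms come in part from different hairpins. The pooled ratio therefore mixes hairpin levels and does not measure the choice of strand within a hairpin. The 5p members together reached 494, 470 and 382 CPM in EKO against 422, 381 and 370 in WT, which overlapped. The 3p members together reached 32.2, 40.6 and 35.0 CPM in EKO against 61.0, 45.8 and 57.5 in WT, all EKO values being below all WT values (log2 ratio of the means -0.61).

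The ratio of 5p to 3p reads was accordingly 15.3, 11.6 and 10.9 in EKO against 6.91, 8.31 and 6.43 in WT, with no overlap. Leaving out miR-669c-5p brought the ratios close together, to 3.86, 4.08 and 4.77 in EKO against 3.27, 3.53 and 3.18 in WT, still without overlap. With undivided total reads the ratios were 11.5, 8.85 and 9.81 in EKO against 5.64, 6.60 and 5.17 in WT. Among members averaging under 10 CPM, both arms had the lower mean in EKO, with overlap. The log2 ratio of the means was -0.50 for their 5p arms and -0.70 for their 3p arms. The part of level in the strand ratio was not tested. Pooled over all other mature miRNAs, the ratio had the opposite order, at 2.30, 2.69 and 3.02 in EKO against 3.52, 3.63 and 3.66 in WT. This pooled ratio is weighted by level, and miR-21a-5p alone averaged 151420 CPM in EKO against 217886 in WT. It was not recomputed without the most abundant miRNAs. For other references averaging under 10 CPM, the log2 ratio of the means was -0.26 for 5p and -0.03 for 3p.

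**Figure D3:**
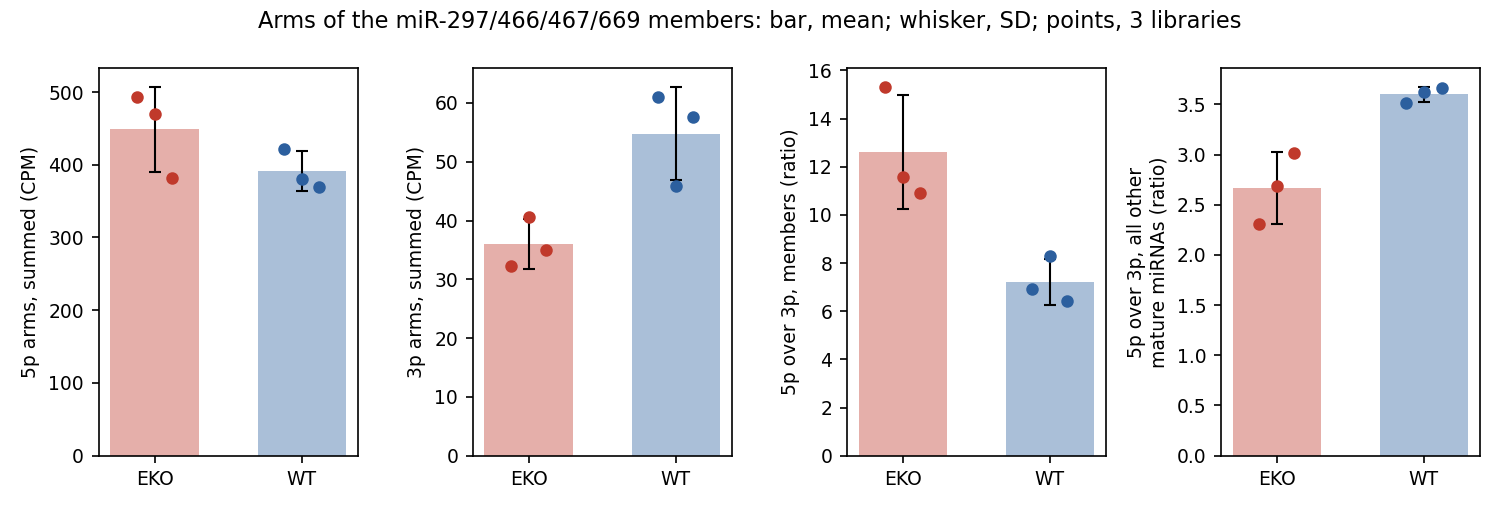
Summed 5p and 3p level of the members (CPM), their ratio of 5p to 3p reads, and the same ratio over all other mature miRNAs, by genotype (bars, mean; whiskers, SD; points, 3 libraries). The member ratio lies at 10.9 to 15.3 in EKO against 6.43 to 8.31 in WT, and the pooled ratio of the other miRNAs is lower in EKO.

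Fewer members were seen in the EKO libraries. At least 1 read was found for 25, 34 and 32 of the 47 in EKO and for 41, 35 and 39 in WT, with no overlap (30.3 ± 4.73 against 38.3 ± 3.06, SD, n = 3 each). With at least 10 reads required the numbers were 16, 24 and 25 in EKO against 33, 26 and 33 in WT, again without overlap. With at least 1 CPM they were 16, 21 and 19 in EKO against 26, 18 and 25 in WT, where WT replicate 2 fell among the EKO libraries. All mature references showed the same order, with 543 to 591 of 911 listed in EKO and 668 to 698 in WT.

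The share of members listed more often in WT was near that of all miRNAs. In more WT than EKO libraries, 17 of 47 members were listed (36.2%), against 334 of 911 references (36.7%), and in more EKO than WT libraries 6 members (12.8%) against 102 references (11.2%). Reads in all 6 libraries were found for 17 members (36.2%), against 408 references (44.8%). A WT-only listing was seen for 4 members, miR-466n-3p, miR-297b-5p, miR-669m-5p/miR-466m-5p and miR-466j, and an EKO-only listing for miR-466f, with 6 reads in EKO replicate 2.

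Member reads were less varied in EKO at a like mean number of reads. Member reads averaged 18259 ± 2385 in EKO against 18266 ± 585 in WT (SD, n = 3 each), but they came as 452, 550 and 510 distinct sequences in EKO and 681, 593 and 724 in WT. The groups did not overlap (504 ± 49.3 against 666 ± 66.8), and neither did those of all mature references, at 48275 to 57650 distinct sequences in EKO and 62572 to 67508 in WT. Some low members rested on very few sequences. For example, the 216 reads of miR-466g in EKO replicate 1 were 4 sequences and the 135 reads of miR-466c-5p in EKO replicate 2 were 2, both chosen after their values were seen. The lower number of distinct sequences moved with the lower detection in EKO, and its part in it was not tested.

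**Figure D4:**
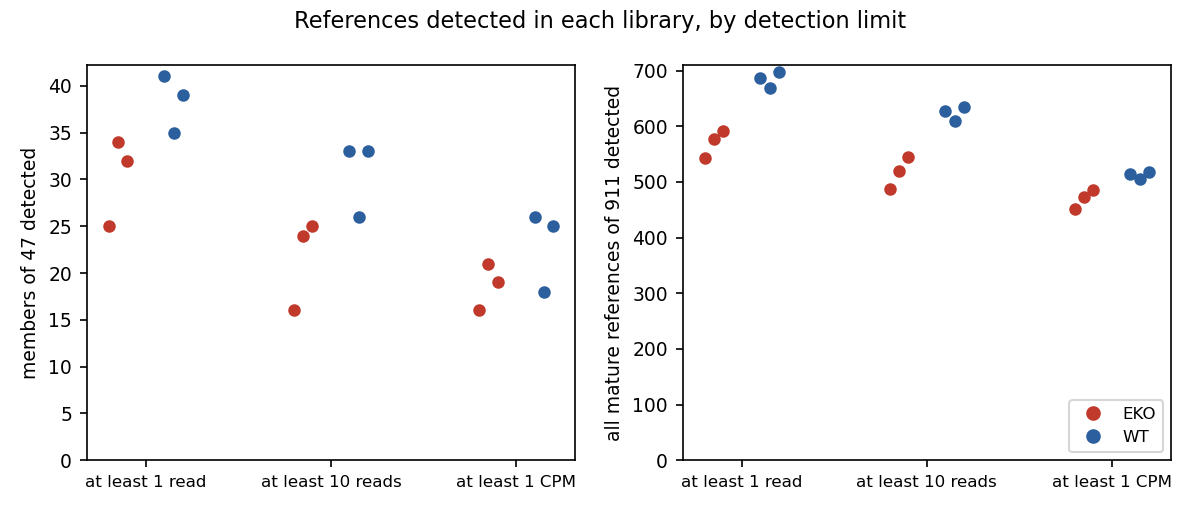
Number of members (left panel, of 47) and of all mature references (right panel, of 911) detected in each library at 3 limits: at least 1 read, at least 10 reads and at least 1 CPM. EKO libraries lie below WT libraries in both panels except for members at 1 CPM, where WT replicate 2 has 18 members.

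Above 1 CPM, members varied between replicates about as much as other miRNAs of their level. For members averaging at least 10 CPM the median coefficient of variation was 20.2% in EKO against 9.90% in WT, and for the other references of that level 21% and 14.4%. At 1 to 10 CPM it was 86.9% in EKO against 39.9% in WT, against 82.9% and 46.8%. Under 1 CPM, where 26 of the 47 members lie, it was 173% in EKO for members and for other references. In WT it was 97.1% for members and 173% for other references. A value of 173% is what reads in 1 of 3 libraries alone give at any level, so it reflects detection rather than spread. References with no read in a genotype have no value there. At 1 to 10 CPM, values were thus poorly reproduced between EKO libraries in particular.

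The comparison over all mature miRNAs called none of the members. Of the 47, 28 passed the filter on low counts and were tested among 575 references, and 0 had an adjusted p under 0.05 (edgeR quasi-likelihood test, background 0% of all tested), the smallest among members being 0.0803. At an unadjusted p under 0.05 there were 3 members, miR-669e-5p, miR-466n-3p and miR-669c-5p, or 10.7% against a background of 21.4%. The 2 that were lower in EKO made up 7.14% of tested members against a background of 13.0%, and the 1 that was higher 3.57% against 8.35%. DESeq2 called 2 members, miR-669e-5p and miR-466n-3p, both lower in EKO, out of 28 tested (7.14%, background 16.3%). With a mean of at least 10 CPM required, edgeR called 0 of 5 members against a background of 23.5%, and with no filter 0 of 47 against 5.71%.

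In direction, tested members leaned lower in EKO. A log2 fold change below 0 was found for 21 of 28 (75.0%), against a background of 58.3%, and the median was -0.34 for tested members and -0.16 for all tested references. The members' median is the same with miR-466n-3p, which had no EKO read, at its bound. Counted over all 47, 29 had the lower mean in EKO (61.7%), close to the background of 62.3%. Groups did not overlap, with EKO lower, for 5 of 28 tested members (17.9%, background 17.7%), namely miR-297c-3p/miR-297b-3p/miR-297a-3p, miR-466n-3p, miR-467d-3p/miR-467a-3p, miR-669e-5p and miR-669l-5p. With EKO higher, they did not overlap for 1 member (3.57%, background 11.8%), miR-466o-5p/miR-466b-5p. Both shares of EKO-lower members, over non-overlapping groups and over all 47, were thus near those of miRNAs at large.

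**Figure D5:**
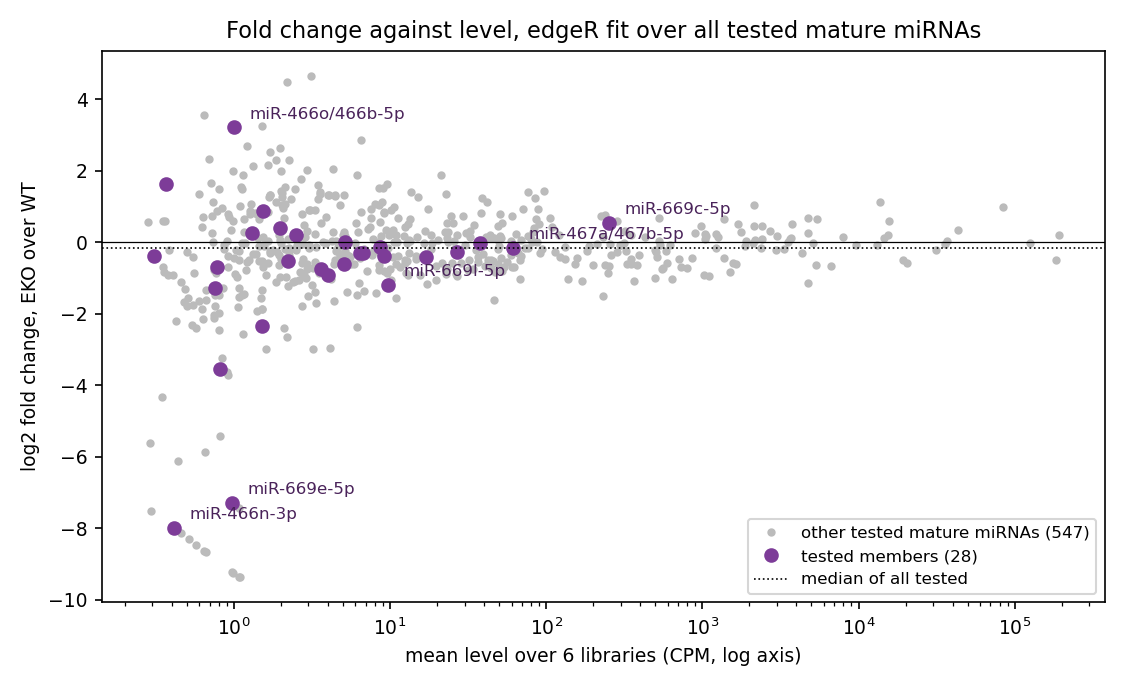
Log2 fold change of EKO over WT (vertical axis) against mean level over the 6 libraries (CPM, log axis) for the 28 tested members and the other tested mature miRNAs, with the median of all tested as a dotted line. The abundant members lie near the line, miR-669c-5p is above it at 0.54, and the large negative values of miR-669e-5p and miR-466n-3p stand at about 1 CPM or below.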

How the data were processed

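Small RNA reads were counted by the authors per reference, in 1 deposited table for each of the 6 libraries. Per the file headers, the tables hold distinct read sequences and total read counts, both whole counts, and an estimated count, which divides each read that fits more than 1 reference. A barcode count also present summed to 0. Per the submitters' processing notes the build was mm9. Which aligner and counter were run is not given in the sources used here. Stem-loop references were left out and a reference with no row was taken as 0. Column extraction can lose small RNAs, and ligation and PCR are biased by sequence, which makes levels of different miRNAs in 1 library only roughly comparable.

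Levels are CPM from the estimated counts. For tests these were rounded and fitted in edgeR 4.0.16 (R 4.3.3, limma 3.58.1) with TMM factors, filterByExpr by genotype and the quasi-likelihood test over all mature references, with Benjamini-Hochberg adjustment and a threshold of 0.05. DESeq2 1.42.0 was an alternative, beside other scalings, filters, the total read counts, leaving out each library, and a block on replicate number. Standard errors of log2 fold changes derive from F. P-values measure the spread between the 3 libraries of each genotype. On counts simulated for this comparison (523 references), the edgeR fit recovered 30.8% of 91 references changed 2-fold and 52.8% of 89 changed 4-fold, with 0 false calls. DESeq2 recovered 37.4% and 65.2%, with 12 false calls. With references averaging 10 CPM or more (251), edgeR recovered 63% of 46 changed 2-fold and 100% of 43 changed 4-fold, with 5 false calls.

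Members described by rule were those averaging at least 10 CPM, the 3 tested members with the smallest p in each direction, and up to 5 with a mean of at least 1 CPM in 1 genotype that had reads in all 3 of its libraries and in at most 1 of the other. The members, lists and tests were chosen with earlier results of these data known. Hairpin positions relative to Sfmbt2 came from RefSeq and GENCODE M21 on GRCm38.p6, another build than the deposited tables, and no coordinates were used.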

Additional observations from a re-analysis of the deposited data

How the results depend on the processing

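Over all mature miRNAs the number called was 0 in edgeR, 92 with DESeq2 (43 higher and 49 lower in EKO), 52 with no low-count filter, 59 with a mean of at least 10 CPM, and 0 to 45 when 1 library was left out, 45 being without EKO replicate 3. Other scalings and the total read counts gave 0. Among members DESeq2 called 2, and leaving out 1 library called 0 to 0. Same-numbered deviations correlated at 0.18, -0.07 and 0.33 across 251 references averaging at least 10 CPM, and unlike-numbered ones at -0.42 to 0.29. With so few libraries, these values cannot settle whether replicate numbers pair the libraries. With the replicate block 62 miRNAs and 0 members were called. The log2 fold change of miR-467c-5p turned positive with DESeq2 size factors (0.0507), DESeq2 (0.0509), total read counts (0.0115), without EKO replicate 1 (0.0828) and without WT replicate 1 (0.07), over a leave-one-out range of -0.16 to 0.08. The DESeq2 size factors moved the median of all references alike, from -0.16 to -0.08. The summed log2 ratio of 0.12 became -0.32 without miR-669c-5p, and was 0.05 to 0.21 when 1 library was left out. That of miR-669 3p was -1.49 without EKO replicate 2, and -1.49 to 0.31 over the libraries left out. The difference in 5p to 3p ratio of 5.39 became 0.91 without miR-669c-5p, an alternative added after seeing the data, and 4.03 to 6.24 when 1 library was left out. A further 271 recomputed values kept their direction and call, or stayed within the spread between replicates, and miR-669e-5p and miR-466n-3p were called by DESeq2 alone. Values within that spread could still change sign. With 1 library left out, the summed log2 ratio of miR-466 5p ran from -0.24 to 0.23 and that of miR-466f/miR-466f-5p from -0.41 to 1.77. Among those 271, leaving out 1 library moved the log2 fold change of miR-297c-3p/miR-297b-3p/miR-297a-3p between -9.60 and -1.75, of miR-669f-3p between -8.45 and -0.64, of miR-669e-5p between -9.22 and -6.82, of miR-466o-5p/miR-466b-5p between 1.97 and 3.66 and of miR-466e-5p/miR-466o-5p/miR-466b-5p between 0.68 and 2.24. Some members below about 10 CPM rested on few distinct sequences, which limits what their values can show. The part of this in the results above was not tested.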

Other observations

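Reads were also found on the stem-loop references of these numbers, which the comparisons left out. They summed to 0.125, 1.31 and 0 CPM in the EKO libraries and 0.512, 0.0614 and 0.230 CPM in the WT libraries, so that EKO replicate 2 held the most and EKO replicate 3 none.

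The 5p to 3p ratio by number, chosen after the values were seen, overlapped between genotypes for each number with both strands well covered. It was 5.90, 8.59 and 7.38 for miR-467 in EKO and 6.69, 5.37 and 5.46 in WT. For miR-466, where 3p reads outnumbered 5p reads in every library, it was 0.267, 0.555 and 0.458 in EKO and 0.192, 0.464 and 0.201 in WT. The ratio for miR-669 varied most, at 304, 28.4 and 87.1 in EKO against 44.5, 42.9 and 41.8 in WT.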
